A study of Rattus norvegicus with 20 samples.

Results

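The ventral subiculum of rats sampled 24 hours after the preconditioning protocol was compared with the ventral subiculum of control rats. The comparison used 10 of the 20 libraries of the series, 5 per group, chosen by the region and treatment in the sample titles, and all genes of the table were considered. The animals of both groups were wild-type Wistar rats aged 3 months. The series title describes the protocol as acute seizures evoked by electrical stimulation of the perforant pathway, and the labels call it preconditioning. The labels do not say what the controls underwent, such as implantation of electrodes without stimulation. The dorsal subiculum of the same 2 treatments, in the other 10 libraries, is used below only to show where the ventral response differed. The labels number the samples of each group but do not say that each came from its own animal, so the p-values measure the spread between these samples.

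The subiculum is the main output field of the hippocampus. It receives input from CA1 and from the entorhinal cortex, and its ventral part projects to the amygdala, the hypothalamus and the nucleus accumbens, among other targets. The perforant pathway is the fibre bundle that carries entorhinal input into the hippocampus. Seizures are known to change neuronal transcription in waves, with transcription factor genes induced within minutes and genes of synaptic, glial and inflammatory function following over hours to days. The table identifies genes by Ensembl ID only, and 0 of its 32883 IDs matched the reference table of 47357 rat genes. Genes are therefore given by ID, and neither the tissue label nor the cell types of the dissected samples could be checked against marker genes. In bulk tissue, fewer cells of a type and less RNA per cell cannot be told apart.

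Total counts lay between 3087146 and 20463678 in the ventral controls and between 7878493 and 19291639 in the ventral preconditioned libraries. A total of 20572 genes had at least 1 count in the ventral libraries, and 13291 passed the filter on low counts and were tested. All pairs of libraries within a group differed by more than sampling noise (chi-square per degree of freedom between 3.37 and 60.9). This covers counting noise only and does not show that they came from separate animals, and each library was counted as 1 sample as the labels list it. Ventral control 2 stood apart from its group. Its median correlation with the other controls, across genes on log2 CPM (counts scaled to library size), was 0.965, with 0.978 to 0.982 for the other 4 controls. The common biological coefficient of variation, edgeR's measure of spread between libraries beyond counting noise, was 0.176 in the controls and 0.173 in the preconditioned group. Without ventral control 2 it was 0.119 in the controls, whereas leaving out any other control gave 0.184 to 0.191.

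Preconditioning was followed by a broad change in the ventral subiculum, with rises outnumbering falls and exceeding them in size. At an adjusted p-value under 0.05 by the quasi-likelihood test of edgeR, 672 of the 13291 genes (5.06%) were called. Higher levels after preconditioning were found for 390 genes (2.93% of those tested) and lower levels for 282 (2.12%). Without ventral control 2 the test called 1029 genes, 601 higher and 428 lower, and 640 of the 672 were among them. The number fell to 432 without ventral control 5 (163 lower) and to 446 without ventral preconditioning 4 (156 lower). The median log2 fold change over all tested genes was -0.01, which the TMM scaling holds near 0, and the middle 50% of genes lay between -0.17 and 0.15. Before adjustment, 2394 genes had a p-value under 0.05.

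**Figure D1:**
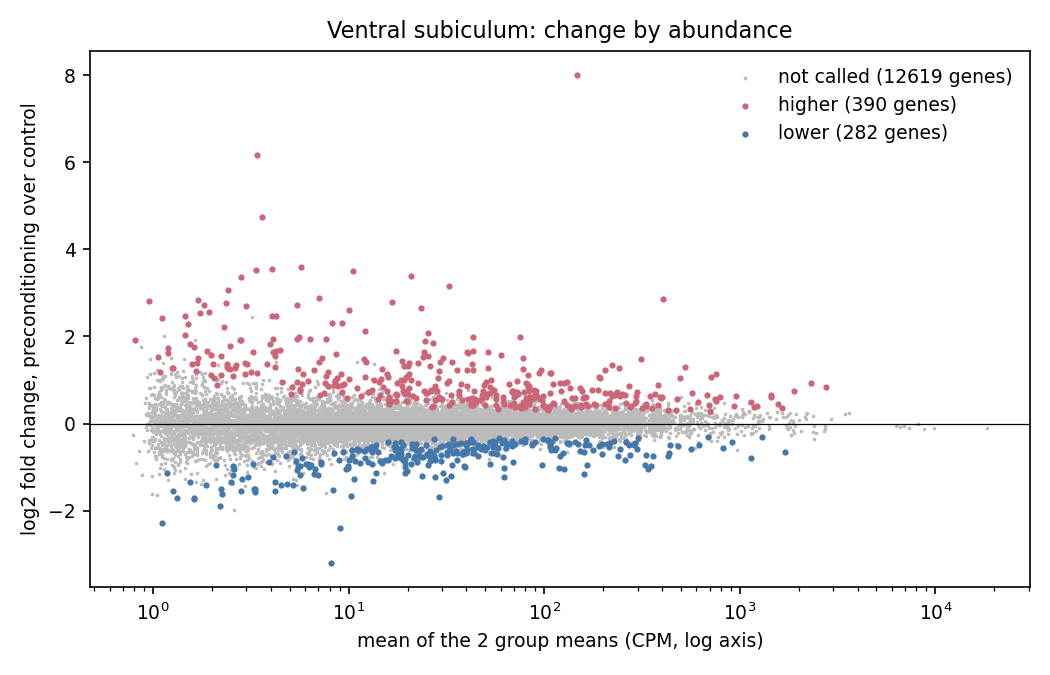
Each point is 1 of the 13291 genes tested in the ventral subiculum. The horizontal axis is the mean of the control and preconditioning means in CPM (log axis), and the vertical axis is the log2 fold change of preconditioning over control. The 390 genes called higher (red) reach log2 fold changes up to 8.0, while the 282 called lower (blue) stay nearer to 0.

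The rises extended to larger changes than the falls. Among the genes called higher the median log2 fold change was 0.82, and among those called lower it was -0.68. The estimate reached 2-fold or more in 152 of the 390 higher genes and in 54 of the 282 lower genes. Without ventral control 2 these numbers were 180 and 85. Changes over 4-fold were found for 38 genes, and 35 of them were rises. At the other end, 103 of the higher genes (26.4%) and 101 of the lower genes (35.8%) changed by less than 1.5-fold. The genes called higher made up 4.11% ± 0.0825 of the tested counts in the controls and 6.47% ± 0.419 after preconditioning (SD, n = 5 each). The genes called lower went from 3.05% ± 0.134 to 1.97% ± 0.0424. These shares describe genes chosen by the same comparison and were not tested.

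In 894 of the tested genes (6.73%) all libraries of one group lay above all libraries of the other in CPM. Of the 672 called genes, 561 (83.5%) were among them, 333 higher and 228 lower. For the remaining called genes at least 1 library lay within the range of the other group. Overlap was measured on the libraries that made the calls, so the high share among called genes is not separate support.

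Genes were named by a rule that took, in each direction, the 2 called genes with the largest fold change among those with a mean count of at least 20 and no overlap between the groups. This condition was met by 318 higher and 223 lower genes. The lack of overlap given below for each named gene is part of the rule and not a separate result.

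ENSRNOG00000011824 had the largest rise. In controls 1 to 5 it measured 0.621, 0.930, 2.20, 1.06 and 0.939 CPM. In preconditioned libraries 1 to 5 it measured 412, 167, 301, 279 and 305 CPM. Every preconditioned library was far above every control, with library 2 the lowest of them. The means were 1.15 ± 0.609 and 293 ± 87.5 CPM (SD, n = 5 each), and the log2 fold change was 8.0 (SE 0.30, adjusted p = 2.33e-09, edgeR). In the controls it was close to the limit of detection in the shallowest library, with 2 counts in control 1 and 22 in control 4.

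ENSRNOG00000033672 was almost undetected in the controls and passed the filter on low counts only through the preconditioned libraries. The controls held 1, 0, 2, 1 and 0 counts. The preconditioned libraries held 71, 55, 74, 84 and 64 counts, or 7.61, 3.49, 8.21, 10.6 and 3.48 CPM. All preconditioned libraries were above all controls, with libraries 2 and 5 below the other 3. Its log2 fold change was 6.18 (SE 0.63, adjusted p = 6.10e-05, edgeR), an estimate that depends on the prior count because the controls are so near to 0. Pooled over libraries, the ratio of 348 to 4 counts corresponded to 74.6-fold, with an exact 95% interval of 28.9 to 275 that covers counting error only.

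ENSRNOG00000061484 had the largest fall among genes meeting the rule. It measured 21.8, 11.3, 14.0, 13.03 and 17.0 CPM in controls 1 to 5 and 0.750, 5.33, 1.66, 2.66 and 3.26 CPM in preconditioned libraries 1 to 5. The preconditioned libraries differed among themselves, from 7 counts in library 1 to 84 in library 2, but all lay below the lowest control. Its mean was 15.4 ± 4.11 CPM in controls and 2.73 ± 1.74 CPM after preconditioning (log2 fold change -2.39, SE 0.34, adjusted p = 0.000931, edgeR).

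ENSRNOG00000051704 fell from a lower starting level and passed the filter on low counts through the controls. It measured 2.80, 3.62, 4.09, 2.21 and 4.52 CPM in the controls. After preconditioning it measured 1.07, 0.761, 1.22, 0.760 and 0.870 CPM, from 6 to 16 counts per library. The groups did not overlap, and the preconditioned libraries were close to each other. Its mean was 3.45 ± 0.941 CPM in controls and 0.937 ± 0.203 CPM after preconditioning (log2 fold change -1.89, SE 0.28, adjusted p = 0.00115, edgeR).

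**Figure D2:**
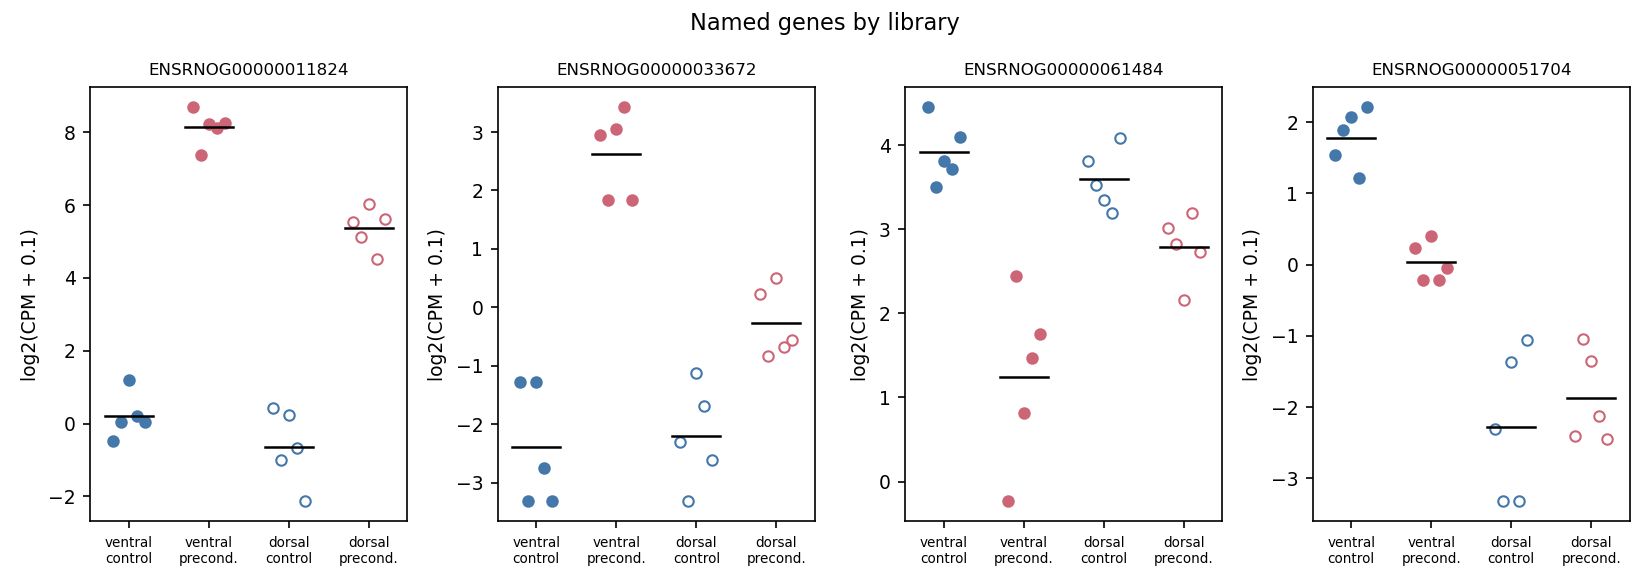
Levels of the 4 named genes in all 20 libraries, as log2 of CPM plus 0.1, with ventral libraries as filled and dorsal libraries as open points, controls in blue, preconditioned libraries in red and the group mean as a line. In the ventral subiculum the groups do not overlap for any of the 4 genes, which the naming rule required. There ENSRNOG00000011824 spans from 0.621 to 412 CPM.

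The 4 named genes differed in their dorsal values. ENSRNOG00000011824 also rose in the dorsal subiculum, from 0.674 ± 0.469 to 43.6 ± 16.0 CPM (log2 fold change 5.88, SE 0.41, adjusted p = 1.59e-05, edgeR). The ventral rise exceeded the dorsal one by 2.13 on the log2 scale (SE 0.62), a difference that did not pass the test of the region by treatment interaction (adjusted p = 0.316, edgeR). ENSRNOG00000061484 measured 12.3 ± 3.16 CPM in dorsal controls and 6.99 ± 1.76 CPM in dorsal preconditioned libraries, which did not pass (log2 fold change -0.80, SE 0.21, adjusted p = 0.191, edgeR). Its log2 difference between regions was -1.60 (SE 0.42, adjusted p = 0.212, edgeR) in the fit that does not use the replicate numbers, and this call depended on that choice. ENSRNOG00000033672 and ENSRNOG00000051704 were too low in the dorsal libraries to be tested there. The first averaged 0.148 ± 0.142 CPM in dorsal controls and 0.788 ± 0.378 CPM in dorsal preconditioned libraries. The second had at most 6 counts in any dorsal control, and its averages were 0.155 ± 0.173 and 0.195 ± 0.135 CPM. With all 20 libraries in one fit, neither passed the interaction test, with log2 differences of 3.97 (SE 1.09, adjusted p = 0.247, edgeR) and -1.97 (SE 0.77, adjusted p = 0.593, edgeR). For the second gene the test could not decide, because dorsal controls averaged only 0.155 CPM, beside 3.45 CPM in ventral controls. That left little dorsal level from which it could fall. The ventral changes of both genes were not shown to be particular to the ventral region.

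Called genes were found at all levels of abundance. The 13291 genes were divided into quartiles by their mean CPM over the 10 ventral libraries. The share called was 3.97% in the least abundant quartile (0.790 to 7.44 CPM), 4.94% and 4.52% in the middle quartiles, and 6.80% in the most abundant (above 66.0 CPM), beside 5.06% of all genes. The size of the called changes went the other way. The median log2 fold change of the higher genes was 1.57 in the least abundant quartile and 0.61 in the most abundant, and that of the lower genes was -1.19 and -0.49. The standard error moved with it, from a median of 0.28 in the least abundant to 0.11 in the most abundant quartile. A larger standard error requires a larger change for a call, so the sizes of called changes are not comparable between quartiles. Of the 206 changes of at least 2-fold, 105 were in the least abundant quartile.

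With all 10 libraries, rises outnumbered falls in 2 of the quartiles. In the most abundant quartile 151 genes were higher and 75 lower, so that 66.8% of its calls were rises. In the least abundant quartile the split was 84 to 48. In the middle quartiles it was 82 to 82 and 73 to 77. Over the 19 alternative analyses the share of rises was between 63.7% and 73.1% in the most abundant quartile, 47.7% and 68.4% in the least abundant, and 46.8% and 57.1%, then 46.7% and 58.8%, in the middle ones. Without ventral preconditioning 4 the middle quartiles split 60 to 45 and 57 to 40. The numbers of calls depended on single libraries. Lower genes of the least abundant quartile numbered 79 without ventral control 2, 28 without ventral control 5, 31 without ventral preconditioning 3 and 30 without ventral preconditioning 4. In the second quartile they numbered 48 without ventral control 3 and 47 without ventral control 5. In the third they numbered 51 without ventral control 1 and 44 without ventral control 5, and without ventral control 2 it held 129 higher and 125 lower genes. The most abundant quartile held 259 higher genes without ventral control 2 and 97 without ventral control 5. The lower genes there numbered 48 without ventral control 3, 44 without ventral control 5 and 39 without ventral preconditioning 4.

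**Figure D3:**
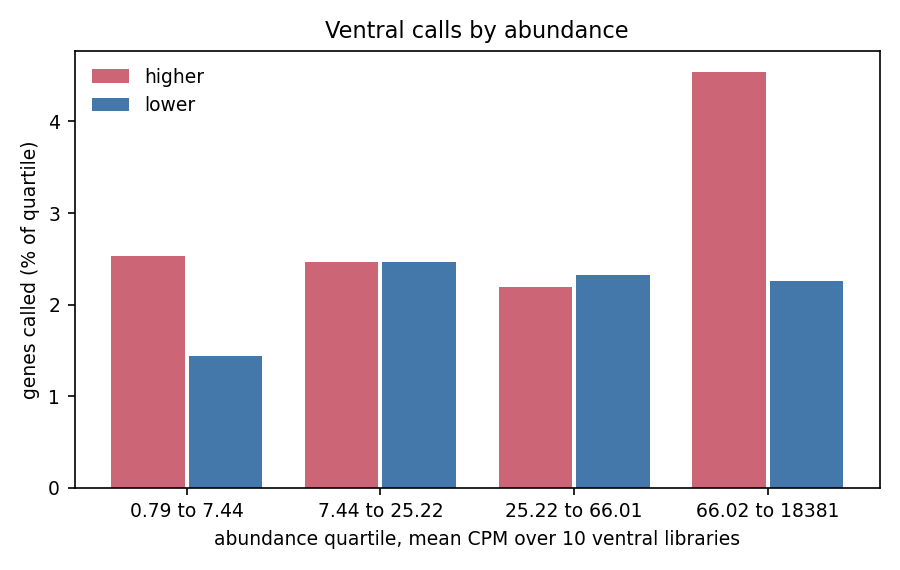
Share of the genes of each abundance quartile that were called higher (red) or lower (blue) in the ventral subiculum, in percent, with the quartile's range of mean CPM on the horizontal axis. In the most abundant quartile 151 genes were higher and 75 lower, while the numbers were nearly equal in the middle quartiles with all 10 libraries.

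The ventral libraries were not all separated by treatment to the same degree. In a principal component analysis of the 10 libraries on log2 CPM, the first component held 28.4% of the variance and did not follow the treatment. Ventral control 2, at 33.5, lay beside ventral preconditioning 2 and 5, at 29.1 and 23.4, and the other libraries were between -33.9 and 5.94. The treatment groups separated on the next component, with 27.5% of the variance. There all controls, from -34.9 to -11.6, were below all preconditioned libraries, from -0.26 to 35.7. Preconditioned libraries 1, 3 and 4 were at 23.8 or above on this component, whereas libraries 2 and 5 were at 3.77 and -0.26.

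Each library was then left out in turn, genes were called from the other 9, and the levels of these genes in the left-out library were compared with the group means of the others. For 7 of the 10 libraries, between 88.4% and 96.4% of the genes lay nearer to the library's own group. The share was 78.6% of 598 genes for ventral preconditioning 2 and 69.6% of 710 genes for ventral preconditioning 5. For ventral control 2 it was 56.2% of 1020 genes, with 55.6% for the genes called higher and 57.0% for those called lower. The gene lists were not alike. Without ventral control 2 the list was the longest, and its median absolute log2 fold change was 0.67. In the other 9 fits this median was between 0.75 and 0.89, so the shares are not strictly comparable. On a scale where 0 is the mean of the other group and 1 the mean of its own, the median gene was at 0.611 in ventral control 2, at 0.717 in ventral preconditioning 5 and at 0.797 in ventral preconditioning 2. The other 7 libraries were between 0.894 and 1.03. Ventral preconditioning 2 and 5 were the deepest of their group, with totals of 16203907 and 19291639 counts, while the other 3 had at most 9290539. Ventral control 2 had 10483545 counts, and the deepest control, ventral control 4, was at 0.894 with 20463678. The part of depth in these positions was not tested.

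**Figure D4:**
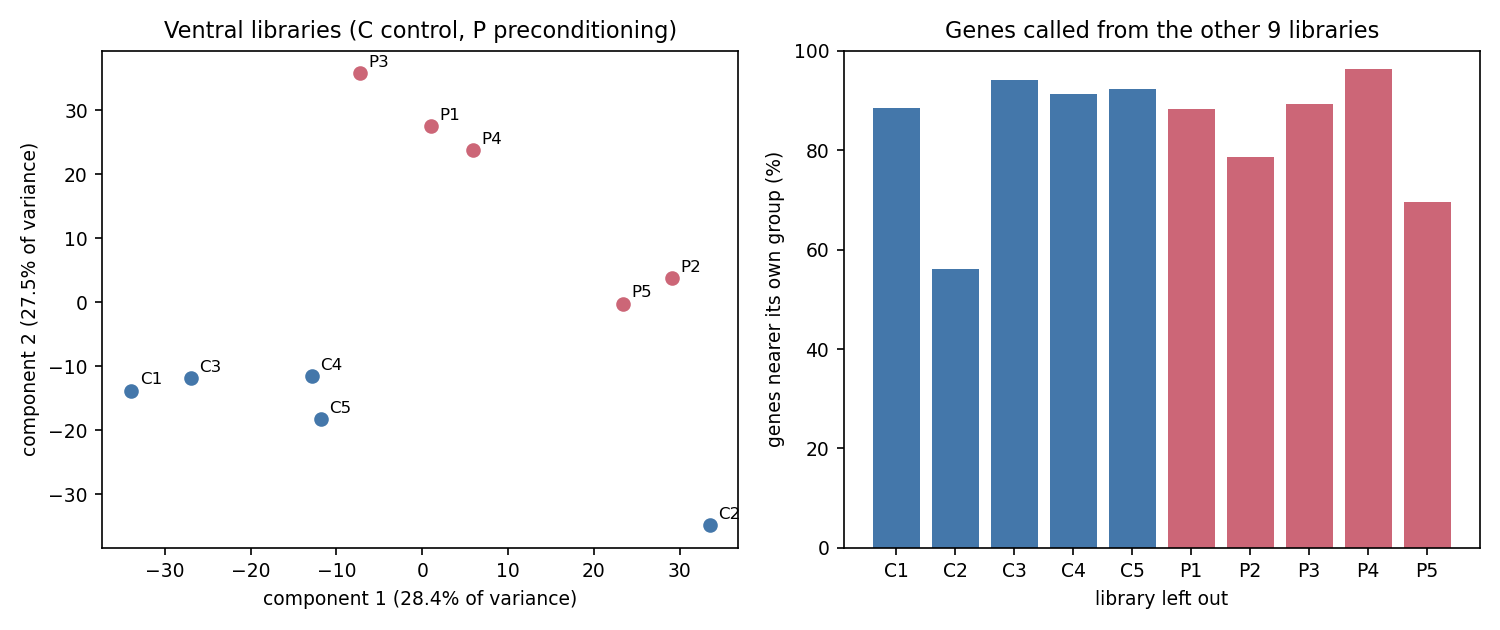
Left, the 10 ventral libraries on the first 2 principal components, with controls (C1 to C5) in blue and preconditioned libraries (P1 to P5) in red. Right, for each library left out in turn, the percentage of genes called from the other 9 whose level in it lay nearer to its own group, which was lowest for ventral control 2 at 56.2%.

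Of the 672 called genes, 375 (55.8%) were called in all 10 of the fits that left out 1 library, 242 higher and 133 lower. This share differed with the size of the change. It was 94.7% of the 38 genes that changed over 4-fold, 72.0% of those between 2 and 4-fold, 63.4% of those between 1.5 and 2-fold and 25.5% of the 204 under 1.5-fold. All 4 named genes were called in each of these fits.

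Most genes called in the ventral subiculum had dorsal estimates of the same sign and smaller size. Of the 390 higher genes 367 could also be tested in the dorsal libraries. A positive estimate was found for 333 of them, and the median log2 fold change was 0.28, beside 0.76 in the ventral one. It was 0.19 for the genes called without ventral control 2. Of the 282 lower genes 273 were tested and 229 had a negative estimate, with medians of -0.24 in the dorsal and -0.67 in the ventral comparison. The 12426 other genes tested in both had a median dorsal log2 fold change of -0.01. The ventral values are those by which the genes were chosen. The dorsal values may not be independent of that choice. Same-numbered dorsal and ventral libraries deviated from their group means together in 5 of 5 control pairs (correlations of 0.200 to 0.393). In the preconditioned group 4 of 5 pairs did so at a correlation above 0.1. The part of this in the shared sign was not tested. In the dorsal comparison itself 37 of 13647 genes passed (0.271%). Among the genes tested in both regions, the larger ventral rises had the larger dorsal values. For rises of at least 2-fold the dorsal median was 0.57 over 129 genes, and for smaller rises it was 0.20 over 238 genes. Among falls of at least 2-fold it was -0.36 over 46 genes, and among smaller falls -0.22 over 227. The classes were not equally covered. Only 129 of the 152 larger rises had enough dorsal counts to be tested, whereas all 238 smaller rises did. For falls it was 46 of 54 and 227 of 228. The medians for the larger changes therefore leave out genes that were very low in the dorsal libraries.

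The dorsal libraries were also examined one by one for the ventral genes. Over the 367 higher genes, the median log2 distance from the dorsal control mean was 0.33, 0.19, 0.43, 0.27 and 0.26 in dorsal preconditioned libraries 1 to 5. Dorsal controls were between -0.091 and 0.051, so the groups did not overlap. Ventral preconditioned libraries were between 0.67 and 0.88 on the same measure, with libraries 2 and 5 the lowest. Over the 273 lower genes the dorsal preconditioned libraries were between -0.36 and -0.17, the dorsal controls between -0.049 and 0.076, and the ventral preconditioned libraries between -0.67 and -0.61. No dorsal preconditioned library reached the ventral range in either set. The genes were chosen by these ventral libraries, which favours larger ventral distances, so the gap between the regions was not tested. The dorsal distances may also carry part of that choice, because same-numbered dorsal and ventral libraries tended to deviate together.

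**Figure D5:**
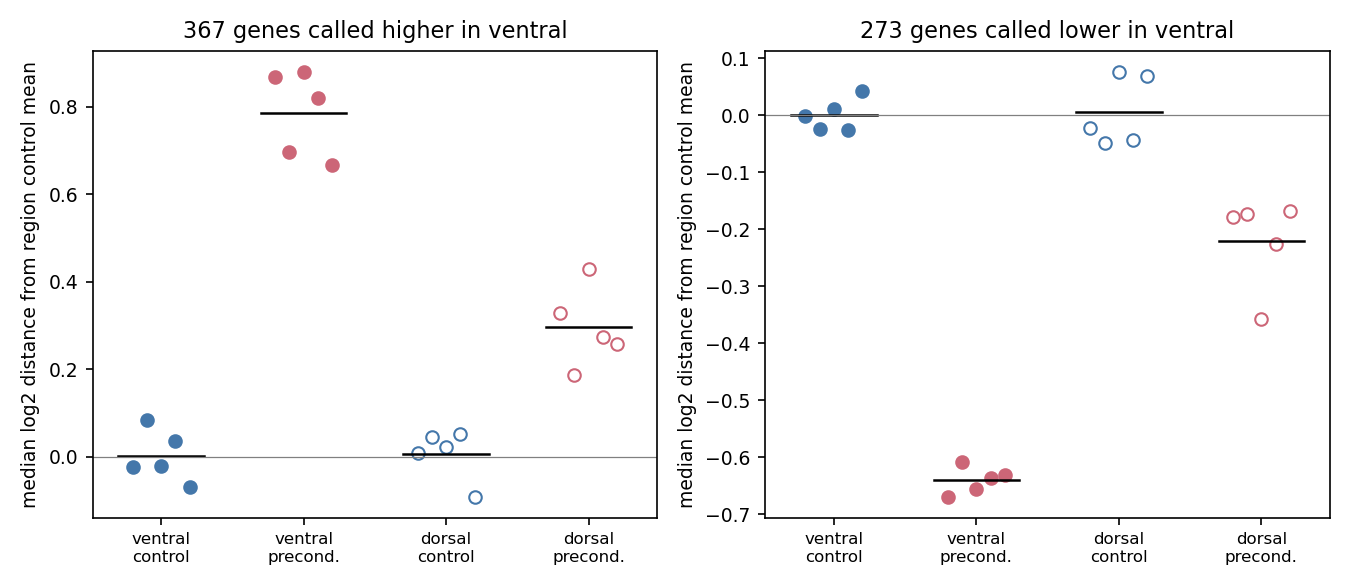
Median log2 distance from the control mean of the same region, over the genes called higher (left, 367 genes) and lower (right, 273 genes) in the ventral subiculum, for each of the 20 libraries, with the group mean as a line. Dorsal preconditioned libraries (open red) lie between their controls and the ventral preconditioned libraries in both sets. The genes were chosen by the ventral values, which favours larger ventral distances.

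For single genes, a region by treatment term in a model of all 20 libraries tested whether ventral and dorsal responses differed. In the fit that does not use the replicate numbers, it was called for 11 of 14087 genes (0.0781%). Of these, 10 had the more positive and 1 the more negative response in the ventral region. Before adjustment, 948 of the 14087 genes had a p-value under 0.05. About 1 in 20 genes would do so with no difference between regions. All 11 were among the ventral calls, and 6 of them had changed at least 2-fold there. The number was 6 without any one of dorsal control 2, ventral control 3, dorsal preconditioning 5, ventral preconditioning 1 or ventral preconditioning 3. It was 7 without ventral control 5, dorsal preconditioning 3 or ventral preconditioning 4, 17 without dorsal control 3 and 20 without ventral preconditioning 5. DESeq2 called 55. With same-numbered dorsal and ventral libraries treated as pairs (the replicate number as a block), edgeR called 62 genes, including all 11. Of the 62, 46 had the more positive and 16 the more negative ventral response. The number of genes and the split by direction therefore depended on the use of the replicate numbers. Whether these numbers mark pairs is not stated in the labels.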

How the data were processed

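RNA was extracted with Trizol from laser-microdissected subiculum of frozen brain sections and sequenced as stranded poly(A) libraries, per the labels' protocols. The authors deposited raw counts per Ensembl gene ID, 1 column per library, not normalized. The submitters' processing notes name STAR, DESeq2 and the build Rnor_5.0. The counting tool, the annotation and the use of strand are not given in the sources used here, so reads shared by paralogs or overlapping genes may have been split or dropped. Columns of treated libraries begin with e where titles begin with p, and were matched by number and region. No coordinates or sequences are given, because no ID could be matched to a name; planned gene lists, cell type markers and promoter motifs were not used for that reason.

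The test was that of edgeR 4.0.16, run in R 4.3.3 (filterByExpr, TMM, glmQLFit with robust=TRUE, glmQLFTest) on the 10 ventral libraries, with Benjamini-Hochberg adjusted p-values under 0.05 called. Standard errors are the log2 fold change divided by the square root of F. CPM are scaled to TMM-adjusted library sizes of the tested genes, and log2 CPM used a prior count of 2. A value of 3 counts corresponded to between 0.147 and 0.972 CPM in the ventral libraries, and such limits cover counting error only. Named genes were chosen by a rule that asked for gene symbols, which was dropped for 2 IDs per direction. The comparison, rule and tests were chosen with earlier results of these data known. Alternatives were DESeq2 1.42.0, DESeq2 size factors, 2 other filters, limma-voom 3.58.1, robust=FALSE, all 20 libraries in one fit, thinning, the replicate number as a block, and leaving out each library. Figures used matplotlib 3.10.9.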

Additional observations from a re-analysis of the deposited data

Results flagged for a closer look

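Of 34 groups of 5 values searched with Dixon's ratio, 4 held a library far from the rest. Chance flags about 1 in 20 groups, or 1.7 of the 34, and the groups share libraries. Ventral control 2 was at -34.9 on the second ventral principal component, with the next control at -18.3. Its ratio of 0.712 was barely above the critical value of 0.71. Of the genes called without it, 56.2% lay nearer to its own group, with 88.5% for the next control on a different gene list. ENSRNOG00000011824 measured 2.20 CPM in ventral control 3, with the next control at 1.06 CPM. Ventral preconditioning 5 had at least 1 count for 17931 genes, with 17072 in the next library of its group. The response differed between the regions for 11 genes by the interaction test in the fit that does not use the replicate numbers. It differed for 62 genes with the replicate number as a block.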

How the results depend on the processing

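In the ventral comparison DESeq2 called 1085 genes (600 higher, 485 lower), limma-voom with sample quality weights 1508 (837 and 671), and edgeR with the replicate number as a block 1261 (733 and 528). DESeq2 called all 672 genes of the reported test, limma-voom 662 and the block 668, and the 593 genes added by the block had a median absolute log2 fold change of 0.44, against 0.74 for the others. The number of genes differing between regions was 62 with the replicate block shared by the regions and 55 with DESeq2. The numbers were taken to pair samples only where every pair deviated together at a correlation above 0.1. Same-numbered ventral control and preconditioned libraries deviated from their group means together at this level in 3 of 5 pairs (range -0.023 to 0.444), and 2 of 5 pairs had their highest correlation with their own number. Same-numbered dorsal and ventral libraries did so in 5 of 5 control pairs, all 5 with their highest correlation at their own number, and in 4 of 5 preconditioned pairs, with the other at 0.038 and 2 of 5 highest at their own number. With this block the difference between regions of ENSRNOG00000061484 passed (log2 difference -1.70, adjusted p = 0.0321, edgeR), and those of the other 3 named genes did not (adjusted p from 0.124 to 0.319).

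Leaving out single libraries gave between 432 and 1029 ventral calls (269 to 601 higher, 156 to 428 lower) and between 6 and 20 genes for the difference between regions. The median dorsal log2 fold change of the genes called higher was 0.19 with the block and 0.17 with limma-voom. At least 2-fold rises numbered 90 with a mean count of at least 50 and 101 after thinning to the smallest library, where fewer genes were tested (10935 and 11497). At least 2-fold falls numbered 31 with that filter and 94 with limma-voom. The 4 named genes were called in the same direction in every alternative that tested them, with adjusted p-values of at most 0.0058. ENSRNOG00000033672 and ENSRNOG00000051704 were not tested with the stricter filter, nor the second after thinning. Counts of gene list members were planned and not run. Ventral control 1, with 3087146 counts, limits what can be detected among rare transcripts.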
